A study of Mus musculus with 7 samples.

Results

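The BCL2 family consists of the proteins that decide whether the outer membrane of the mitochondrion is opened during apoptosis. The genes described here were those of the count table whose symbol was Bcl2, Bcl2l1, Mcl1, Bax, Bak1, Bid, Bad, Bcl2l11, Bbc3 or Pmaip1. All 10 were found among the 56691 genes of the table. The data came from a study of acute liver injury in mice given lipopolysaccharide (LPS, a component of the outer wall of Gram-negative bacteria), and whole liver was analysed by poly(A) RNA sequencing. The 4 control samples and 3 LPS samples came from male C57BL/6J mice bought at 8 weeks of age and kept for 2 weeks before use. The study describes 6 mice per group, and its sulforaphane group was not analysed here. LPS was injected into the peritoneal cavity at 10 mg/kg and livers were taken 24 h later. The labels call the comparison group control and name no vehicle. A figure legend of the study counts 4 control and 3 LPS mice, and the labels do not tie each sample to an animal. The p-values below test the difference between the groups against the spread between these samples. Total counts were 14991022, 15096573, 15721944 and 18584140 in control replicates 1 to 4 and 20500391, 17095607 and 17821331 in LPS replicates 1 to 3.

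The family has 3 kinds of protein. The survival proteins (BCL2, BCL-XL from Bcl2l1, and MCL1) hold the effectors BAX and BAK in check, and the BH3-only proteins (BID, BAD, BIM from Bcl2l11, PUMA from Bbc3, and NOXA from Pmaip1) respond to stress by occupying the survival proteins or by activating the effectors directly. Activated BAX and BAK form pores through which cytochrome c leaves the mitochondrion, and in hepatocytes both BCL-XL and MCL1 are needed for survival. Much of this control acts on the proteins through cleavage, phosphorylation and degradation, which were not analysed here.

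The tissue label and the treatment label were first checked against marker genes. Values are CPM, each gene's count relative to the library's total count scaled by edgeR's TMM factor. The 10 hepatocyte markers summed to 70242, 72779, 94175 and 82803 CPM in control and 49578, 54396 and 54288 CPM in LPS samples (80000 ± 10895 and 52754 ± 2751 CPM, mean ± SD, n = 4 and 3), and albumin (Alb) was the most abundant in both. The acute phase gene Hp rose from 2666 ± 567 to 27501 ± 4305 CPM and Lcn2 from 9.80 ± 3.70 to 8298 ± 1488 CPM. Saa1, whose reads can be shared with close copies, rose from 87.2 ± 40.3 to 22084 ± 4939 CPM. Every LPS sample was above every control sample for these 3 genes.

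Some libraries stood apart within their group. The mitochondrially encoded genes took 23.7%, 14.6%, 7.48% and 8.96% of counts in control replicates 1 to 4 and 6.45%, 3.83% and 3.94% in LPS replicates 1 to 3. LPS replicates 2 and 3 resembled each other most: among well-counted genes (above 2000 counts), their log2 ratio had an SD of 0.10, and the remaining within-group pairs had 0.29 to 0.58. Over genes with 40 to 400 counts in the pair their variance was 3.81 times the counting noise, against 5.58 to 10.7 times in the other pairs, which does not tell 2 livers from 2 libraries of 1 liver. They were kept as separate samples, as labelled, and were summed as an alternative. LPS replicate 1 differed from these 2 in macrophage markers, which summed to 609 CPM against 111 and 111 CPM. The controls also fell into pairs. Among well-counted genes the SD was 0.30 for control replicates 1 and 2 and 0.29 for control replicates 3 and 4. It was 0.37 to 0.58 for control samples from different pairs.

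Of the 10 members, 5 were higher in LPS liver and 0 were lower. In edgeR's quasi-likelihood test with Benjamini-Hochberg adjustment over 13683 genes, called at an adjusted p below 0.05, the higher members were Bcl2l1, Bax, Bak1, Bad and Pmaip1. Among all genes tested, 13.3% were called higher and 13% were called lower. The count of 0 lower members was also 0 at an unadjusted p below 0.05 and 0 with DESeq2. Every LPS sample was above every control sample for the same 5 members, against 18.1% of all genes tested, and below it for 0 members, against 17.4%. Only Pmaip1 also had a log2 fold change above 1, a rule that 7.81% of genes met in the upward direction. The median log2 fold change (LPS minus control) was 0.53 over the members and -0.01 over all genes tested. All 10 members passed the low count filter, Pmaip1 only through its LPS samples. Without LPS replicate 2 the count of higher members was 3 (Bcl2l1 and Bax lost), without LPS replicate 3 it was 3 (Bcl2l1 and Bad lost), and without LPS replicate 1 it was 4 (Bak1 lost). When libraries were scaled by total counts alone, 3 members were called higher, the median of all genes moved from -0.01 to -0.13, and 1350 genes were called higher and 2057 lower in place of 1825 and 1773. With the mitochondrially encoded genes left out, 5 members were called higher.

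**Figure D1:**
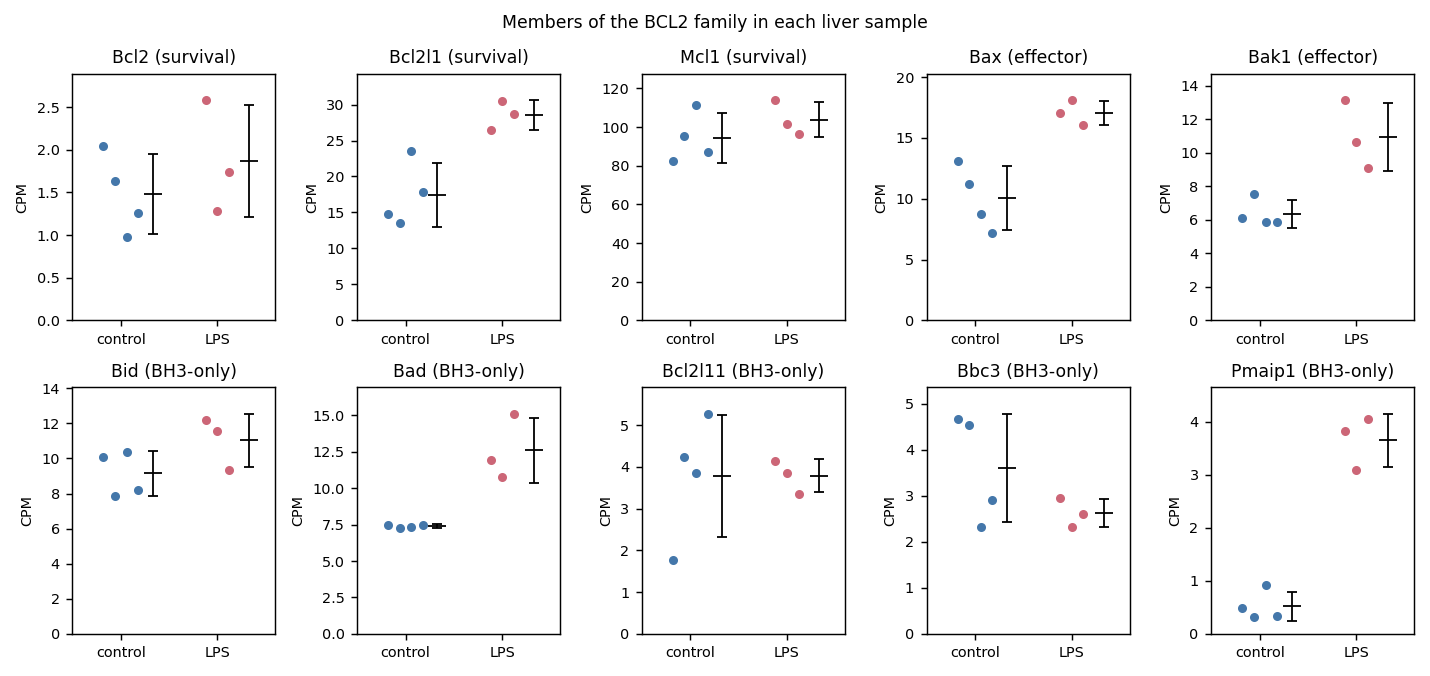
Each panel shows 1 member of the family, with the level in CPM on the vertical axis, a point for each of the 4 control and 3 LPS samples, and the mean with its SD as a bar beside them. The LPS samples of Bcl2l1, Bax, Bak1, Bad and Pmaip1 all lay above the control samples, and those of the other 5 members overlapped with them.

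Among the survival members, Bcl2l1 rose and the other 2 were not called. Bcl2l1 (ENSMUSG00000007659), which encodes BCL-XL, stood at 14.8, 13.6, 23.6 and 17.9 CPM in control replicates 1 to 4 and at 26.5, 30.5 and 28.7 CPM in LPS replicates 1 to 3. The lowest LPS sample was above the highest control sample, control replicate 3. The group means were 17.5 ± 4.46 and 28.6 ± 2.03 CPM, and the log2 fold change was 0.71 (SE 0.19, edgeR adjusted p = 0.0149). The adjusted p of Bcl2l1 ranged from 0.00125 to 0.0662 over 15 alternatives and was above 0.05 in 4 of them: without LPS replicate 2 (0.0662), without LPS replicate 3 (0.0533), with these 2 summed (0.0556) and with total counts (0.0556). Mcl1 (ENSMUSG00000038612), whose protein is short-lived and is rapidly replaced, stood at 82.3, 95.6, 112 and 87.3 CPM in the control replicates and at 114, 102 and 96.2 CPM in the LPS replicates. The groups overlapped, with control replicate 3 above LPS replicates 2 and 3. The log2 fold change of Mcl1 was 0.14 with a 95% interval of -0.18 to 0.46 (edgeR adjusted p = 0.530). Bcl2 (ENSMUSG00000057329), the founding member, best known from lymphocytes, was counted by few reads: 29, 26, 16 and 26 in control replicates 1 to 4 and 56, 20 and 28 in LPS replicates 1 to 3. Its levels were 2.05, 1.64, 0.977 and 1.26 CPM in control and 2.58, 1.29 and 1.74 CPM in LPS samples, with LPS replicate 1 highest and LPS replicates 2 and 3 inside the control range. The 95% interval of its log2 fold change, -0.64 to 1.34 around 0.35, was too wide to show a change of either sign at this depth.

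Both effectors were higher in LPS liver. Bax (ENSMUSG00000003873), whose protein moves from the cytosol to mitochondria when activated, stood at 13.1, 11.2, 8.73 and 7.15 CPM in control replicates 1 to 4 and at 17.0, 18.1 and 16.0 CPM in LPS replicates 1 to 3. All LPS samples were above control replicate 1, the highest control. The means were 10.0 ± 2.62 and 17.1 ± 1.02 CPM and the log2 fold change was 0.77 (SE 0.21, edgeR adjusted p = 0.0165). Across 15 alternatives the adjusted p of Bax ran from 0.00230 to 0.0659, and the call was lost in 1 of them, without LPS replicate 2. Bak1 (ENSMUSG00000057789) encodes BAK, which sits in the outer mitochondrial membrane. Its levels were 6.08, 7.56, 5.86 and 5.85 CPM in the control samples and 13.1, 10.6 and 9.08 CPM in the LPS samples. LPS replicate 1 was the highest and control replicate 2 stood above the other controls, but the groups did not overlap. The means were 6.34 ± 0.825 and 10.9 ± 2.04 CPM, and Bak1 had a log2 fold change of 0.79 (SE 0.21, edgeR adjusted p = 0.0145). The adjusted p of Bak1 ran from 0.00991 to 0.0723 over 15 alternatives and passed 0.05 in 2 of them, without LPS replicate 1 (0.0723, log2 fold change 0.64) and with total counts (0.0544). LPS replicate 1 also had the highest macrophage marker sum, and the part of macrophages in the Bak1 result was not tested.

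Of the 5 BH3-only members, 2 rose, 0 fell and 3 were not called. Pmaip1 (ENSMUSG00000024521), which encodes NOXA, a partner mainly of MCL1, had 7, 5, 15 and 7 counts in control replicates 1 to 4 and 83, 48 and 65 counts in LPS replicates 1 to 3. These were 0.495, 0.315, 0.916 and 0.338 CPM in control and 3.82, 3.09 and 4.04 CPM in LPS samples. Every LPS sample was far above control replicate 3, the highest control. The log2 fold change of Pmaip1 was 2.81 (SE 0.47, edgeR adjusted p = 0.000731), or 7.04-fold, with a 95% interval of 1.80 to 3.83 on the log2 scale. Pmaip1 was called higher under all 14 alternatives in which it was tested, with an adjusted p of 7.15e-07 to 0.00594. Bad (ENSMUSG00000024959), whose protein binds BCL2 and BCL-XL when it is not phosphorylated, stood at 7.49, 7.25, 7.33 and 7.49 CPM in control replicates 1 to 4 and at 11.9, 10.7 and 15.1 CPM in LPS replicates 1 to 3. The controls were nearly equal, and LPS replicate 3 was the highest of the LPS samples. The means were 7.39 ± 0.121 and 12.6 ± 2.26 CPM and the log2 fold change was 0.77 (SE 0.19, edgeR adjusted p = 0.00920). The adjusted p of Bad ran from 0.00604 to 0.0707 over 15 alternatives, and it was above 0.05 only without LPS replicate 3.

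Bid, Bcl2l11 and Bbc3 were not called. Bid (ENSMUSG00000004446) links death receptors to mitochondria, because caspase-8 cleaves its protein into the active form. Its levels were 10.1, 7.88, 10.4 and 8.22 CPM in control and 12.2, 11.6 and 9.33 CPM in LPS samples, where LPS replicate 3 fell inside the control range. The log2 fold change of Bid was 0.27 (95% interval -0.15 to 0.69, edgeR adjusted p = 0.336). Bcl2l11 (ENSMUSG00000027381) encodes BIM, which binds all the survival proteins. It stood at 1.77, 4.22, 3.85 and 5.27 CPM in control replicates 1 to 4 and at 4.14, 3.86 and 3.36 CPM in LPS replicates 1 to 3. The control samples were spread widely around the LPS samples, with control replicate 1 lowest and control replicate 4 highest. Its means were 3.78 ± 1.47 and 3.79 ± 0.397 CPM and the 95% interval of the log2 fold change was -0.77 to 0.76. Bbc3 (ENSMUSG00000002083) encodes PUMA, a product of a well-known p53 target gene that is also induced without p53. Its levels were 4.66, 4.54, 2.32 and 2.90 CPM in control and 2.95, 2.32 and 2.61 CPM in LPS samples. Control replicates 1 and 2 were above every LPS sample, whereas control replicates 3 and 4 were within the LPS range. The log2 fold change of Bbc3 was -0.45 (95% interval -1.20 to 0.31, edgeR adjusted p = 0.381).

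**Figure D2:**
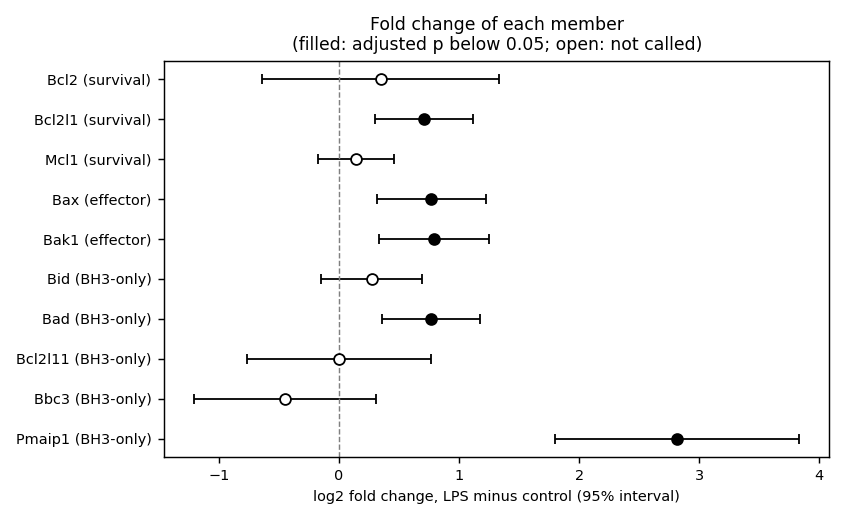
The horizontal axis gives the log2 fold change (LPS minus control) of each of the 10 members, with its 95% interval as a bar, from edgeR's quasi-likelihood fit of 4 control and 3 LPS samples. Filled points mark the 5 members called at an adjusted p below 0.05, and Pmaip1, at 2.81, lay apart from the other 9, which ran from -0.45 to 0.79.

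Levels can be compared between genes only per length, so CPM was divided by the merged exon length of each gene in kilobases. Mcl1 was the most abundant member by this measure in both groups, at 27.6 ± 3.76 CPM per kilobase in control and 30.4 ± 2.64 in LPS samples. Bax followed at 6.37 ± 1.66 and 10.8 ± 0.647 CPM per kilobase, and Bcl2l1 at 3.81 ± 0.972 and 6.23 ± 0.442. Bax was above Bcl2l1 by this measure within each control sample. Bad, Bak1 and Bid formed the next level in control samples, at 2.89 ± 0.0475, 2.63 ± 0.343 and 2.58 ± 0.360 CPM per kilobase, and did not differ beyond their spread. In LPS samples Bad and Bak1 stood at 4.92 ± 0.883 and 4.55 ± 0.846 CPM per kilobase and Bid at 3.11 ± 0.425. Pmaip1 and Bcl2 were the lowest in control samples, at 0.189 ± 0.102 and 0.162 ± 0.0509 CPM per kilobase. After LPS, Pmaip1 stood at 1.34 ± 0.183 CPM per kilobase, level with Bbc3 at 1.24 ± 0.148, while Bcl2l11 stood at 0.472 ± 0.0495. Of the CPM summed over the 10 members, Mcl1 made up 61.0% ± 2.56 in control and 52.9% ± 1.58 in LPS samples.

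The summed levels of the 3 groups differed in how far they stood apart. The effectors together were at 19.1, 18.8, 14.6 and 13.0 CPM in control replicates 1 to 4 and at 30.1, 28.7 and 25.1 CPM in LPS replicates 1 to 3, with no overlap. The 5 BH3-only members together were at 24.5, 24.2, 24.8 and 24.2 CPM in control and 35.0, 31.6 and 34.5 CPM in LPS samples, also with no overlap. This even control sum hid members that varied in opposite ways, since Bcl2l11 was lowest and Bbc3 highest in control replicate 1. The survival members together were at 99.2, 111, 136 and 106 CPM in control and 143, 133 and 127 CPM in LPS samples, and control replicate 3 lay inside the LPS range. No test was run on sums or ratios over the members.

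Ratios within a sample do not depend on library size. The ratio of effectors to survival members was 0.193, 0.170, 0.107 and 0.122 in control replicates 1 to 4 and 0.211, 0.215 and 0.198 in LPS replicates 1 to 3. All LPS samples were above all control samples, though LPS replicate 3 exceeded control replicate 1 only narrowly. The means were 0.148 ± 0.0401 and 0.208 ± 0.00871, and per kilobase they were 0.292 ± 0.0846 and 0.417 ± 0.0162, also without overlap. Mcl1 made up most of the survival sum, with means of 94.2 of 113 CPM in control and 104 of 134 CPM in LPS samples. The denominator of this ratio is therefore mainly Mcl1, and the rise of Bcl2l1 weighs little in it. Bak1 to Mcl1 pairs BAK with a survival protein that is known to restrain it. This ratio was 0.0738, 0.0791, 0.0525 and 0.0670 in control and 0.115, 0.104 and 0.0944 in LPS samples, and the groups did not overlap. It shares Bak1 and Mcl1 with the ratio of effectors to survival members, so these are not separate results. Bax to Mcl1 was 0.159, 0.117, 0.0782 and 0.0819 in control and 0.150, 0.178 and 0.167 in LPS samples. Here control replicate 1 was above LPS replicate 1, so the groups overlapped.

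Other ratios that are often read as a balance of death and survival signals overlapped between groups. Bax to Bcl2l1 was 0.620 ± 0.272 in control and 0.599 ± 0.0422 in LPS samples, since both genes rose. Its control values fell into a high pair (0.881 and 0.828 in replicates 1 and 2) and a low pair (0.370 and 0.400 in replicates 3 and 4), with the LPS samples between them. These were the same pairs that were most alike over well-counted genes, so the split was not particular to this ratio. Effectors to survival members, Bax to Mcl1, Bak1 to Mcl1 and Bbc3 to Mcl1 also split the controls this way, and the other ratios did not. The high pair also had the larger mitochondrial shares of counts (23.7% and 14.6%, against 7.48% and 8.96% in the low pair). The LPS samples had 6.45%, 3.83% and 3.94%, and a link between this share and the ratio was not tested. Bax to Bcl2 was 6.96 ± 1.40 in control and 9.96 ± 3.78 in LPS samples, where a single sample, LPS replicate 2, reached 14.1 on 20 counts of Bcl2. The BH3-only to survival ratio was 0.219 ± 0.0273 in control and 0.251 ± 0.0184 in LPS samples, and control replicate 1 (0.247) lay above LPS replicates 1 and 2 (0.245 and 0.237). For BIM, Bcl2l11 to Mcl1 was 0.0401 ± 0.0164 and 0.0364 ± 0.00155, and Bcl2l11 to Bcl2l1 was 0.222 ± 0.0955 and 0.133 ± 0.0206. Bbc3 to Mcl1 was 0.0395 ± 0.0158 in control and 0.0253 ± 0.00224 in LPS samples, with control replicate 3 (0.0208) below all LPS samples.

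**Figure D3:**
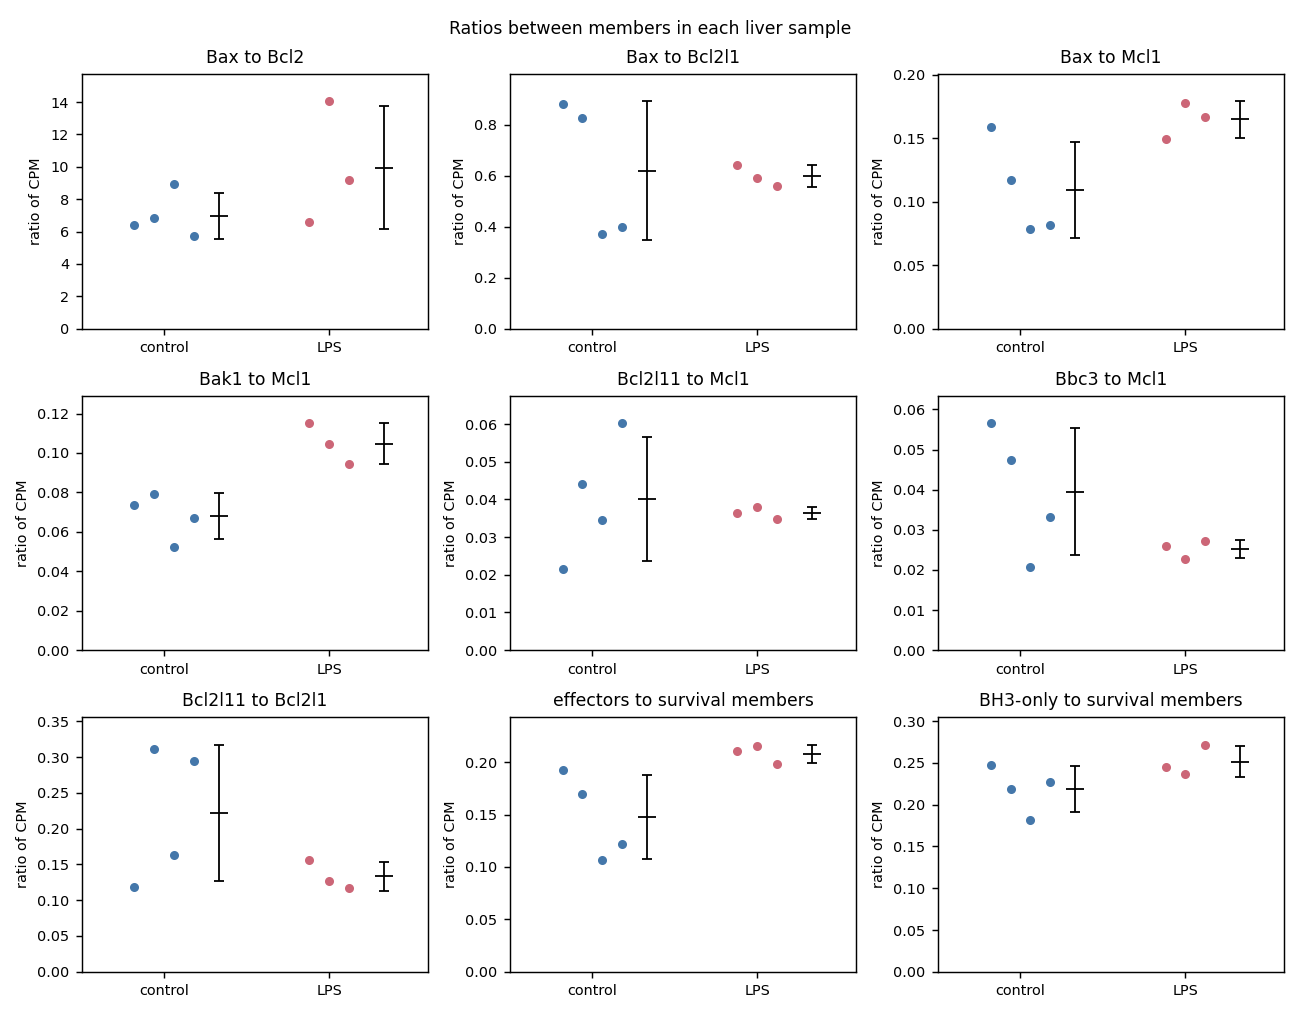
Each panel shows 1 ratio of CPM between members or groups of members, with the ratio on the vertical axis, a point for each of the 4 control and 3 LPS samples, and the mean with its SD as a bar. The LPS samples lay above the control samples for Bak1 to Mcl1 and for effectors to survival members, and the other 7 ratios overlapped.

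Of 16 other genes of the BCL2 family and its relatives, 11 could be tested, 3 were higher and 0 were lower. The count of 0 was also 0 at an unadjusted p below 0.05 and 0 with DESeq2. Of all genes tested, edgeR called 13.3% higher and 13% lower. The 3 higher genes were Bcl2a1a, Bcl2a1b and Bcl2a1d, near-identical copies that encode the survival protein A1, known from neutrophils and other blood cells. All 3 passed the low count filter only through their LPS samples, so genes this low in control liver could enter the count as higher but hardly as lower. How their shared reads were split is uncertain, so their sum is given first, a choice made after their values were seen. The summed counts were 9, 4, 11 and 6 in control replicates 1 to 4 and 177, 124 and 150 in LPS replicates 1 to 3. The sums were 0.462 ± 0.222 CPM in control and 8.49 ± 0.735 CPM in LPS samples, and the LPS samples were all far above the controls. The ratio of the pooled rates was 18.9, with an exact 95% interval of 13.1 to 28.4 that covers counting error only. Taken singly, Bcl2a1b had 3, 3, 2 and 3 counts in control and 103, 46 and 60 counts in LPS samples, a ratio of 23.9 (13.1 to 48.6), with an edgeR adjusted p of 2.41e-05. Bcl2a1a had a ratio of 30.6 (13.7 to 84.8) and an edgeR adjusted p of 0.000724. Its edgeR log2 fold change was 4.83, and 5.88 without control replicate 3. Bcl2a1d had a ratio of 9.29 (5.18 to 18.1) and an edgeR adjusted p of 0.00270. Bcl2l10 had 0 counts in all 7 samples, which allows up to 0.138 to 0.212 CPM in a sample (3 counts). Bcl2a1c and Hrk had 1 count in 1 LPS sample each, and Bcl2l14 and Bcl2l15 were also too low to test.

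The neutrophil markers rose in the same samples as the Bcl2a1 copies. All 6 tested of the 10 listed were higher, against 13.3% of all genes tested. The list summed to 5.16, 4.54, 2.01 and 2.95 CPM in control replicates 1 to 4 and 193, 137 and 136 CPM in LPS replicates 1 to 3. Of these 6, S100a8, Ltf, Cxcr2 and Retnlg passed the low count filter only through their LPS samples, so the filter itself favoured a count of higher genes in this list. S100a9 was the most abundant at 1.17 ± 0.646 and 82.8 ± 17.1 CPM, and S100a8 stood at 0.487 ± 0.270 and 46.0 ± 8.80 CPM. Ly6g had 0 counts in every control sample and 7, 0 and 1 counts in the LPS samples, and Mpo, Elane and Camp were also too low to test. In bulk tissue, a change in the number of cells of a type and a change in RNA per cell cannot be told apart. The part of neutrophils in the Bcl2a1, Pmaip1 or other results was not tested.

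Markers of other liver cells moved as well. For the edgeR counts here and in the next paragraph, the shares over all genes tested were 13.3% higher and 13% lower. The 8 macrophage markers summed to 105, 161, 145 and 100 CPM in control and 609, 111 and 111 CPM in LPS samples, with 3 higher and 1 lower (2 and 1 in DESeq2). Clec4f, a marker of Kupffer cells and the most abundant of the list in control samples, fell from 54.4 ± 11.7 to 12.3 ± 10.3 CPM (log2 fold change -2.13, edgeR adjusted p = 0.00216). Adgre1 rose from 4.07 ± 1.19 to 12.5 ± 5.43 CPM, and Marco, the most abundant over all samples because of 8889 counts in LPS replicate 1, stood at 3.68 ± 1.54 and 180 ± 198 CPM. Of 6 B cell markers 5 were tested and 2 were lower (3 in DESeq2), among them Cd79b, and the list summed to 10.7, 13.7, 5.43 and 8.99 CPM in control and 4.23, 1.61 and 2.18 CPM in LPS samples, with Ighm most abundant and no overlap. The B cell markers called, like Cd4 below, passed the low count filter only through the control samples. Bcl2, a gene well known from lymphocytes, was not called. Of 9 T and NK cell markers 2 were tested. Cd4, the most abundant in control but not in LPS samples, was lower, at 2.13 ± 0.231 and 0.258 ± 0.232 CPM. The list summed to 4.88, 4.73, 5.49 and 3.58 CPM in control and 3.45, 2.51 and 2.99 CPM in LPS samples. Cd3e was among the markers too low to test, and these had mixed directions. Mean levels of Klrb1c, Nkg7 and Ncr1 were higher in LPS samples, and those of Cd3e, Cd3d, Trac and Cd8a were lower. For Klrb1c every LPS sample was above every control sample.

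The summed endothelial, stellate cell and cholangiocyte markers overlapped between groups, and the erythroid and hepatocyte sums did not. The 7 endothelial markers (2 higher, 2 lower) summed to 111, 143, 92.2 and 125 CPM in control and 148, 79.3 and 78.3 CPM in LPS samples, and Stab2 was most abundant only when all 7 samples were pooled. Pecam1 was higher, while Clec4g, which passed the low count filter only with its control samples, fell from 25.3 ± 4.18 to 1.16 ± 0.780 CPM (edgeR adjusted p = 2.23e-06) and Kdr from 23.5 ± 7.83 to 11.9 ± 3.89 CPM (edgeR adjusted p = 0.0209). The 7 stellate cell markers (1 higher, 2 lower) summed to 357, 258, 165 and 271 CPM in control and 277, 216 and 210 CPM in LPS samples, with Lrat lower and Dcn most abundant. The 5 cholangiocyte markers (1 higher) summed to 262, 108, 72.1 and 116 CPM in control and 137, 164 and 158 CPM in LPS samples, with Spp1 most abundant and Krt19 not called. The 5 erythroid markers (4 lower in edgeR, 2 in DESeq2) summed to 307, 183, 232 and 179 CPM in control and 136, 53.8 and 53.7 CPM in LPS samples, led by Hbb-bs, whose groups overlapped (edgeR adjusted p = 0.0468), and Hba-a1 was lower. LPS replicate 1 had the highest endothelial and erythroid sums of the LPS samples. Among hepatocyte markers, 3 were lower (Alb, Apoa1 and Ttr) and 3 were higher (Pck1, Tat and Hnf4a), and DESeq2 called 4 lower and 4 higher. The part of these cell types in the changes of the family members was not tested.

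Genes that act downstream of BAX and BAK came next. Of 12 genes of mitochondrial release and the apoptosome, 1 was higher and 1 was lower, where 13.3% of all genes tested were higher and 13% lower. Apaf1, the scaffold that cytochrome c assembles into the apoptosome, rose from 2.49 ± 0.734 to 6.12 ± 1.01 CPM (log2 fold change 1.29, SE 0.31, edgeR adjusted p = 0.00787) with no overlap. Opa1, which keeps the cristae of mitochondria closed, fell from 65.2 ± 17.8 to 42.3 ± 0.696 CPM (edgeR adjusted p = 0.0353). The call of Opa1 held in 8 of 15 alternatives, with an adjusted p of 0.00330 to 0.118, and was lost without control replicate 3 (0.0632), control replicate 4 (0.0895), LPS replicate 1 (0.0771), LPS replicate 2 (0.113) or LPS replicate 3 (0.115), with LPS replicates 2 and 3 summed (0.118) and with the replicate number as a block (0.0992). Cycs, which encodes cytochrome c, stood at 150 ± 11.6 and 157 ± 3.93 CPM, and Casp9, the initiator caspase of this arm, at 11.6 ± 3.49 and 10.5 ± 1.00 CPM, and neither was called. Of 5 executioner caspase and nuclease genes, 0 were higher and 0 lower in edgeR and in DESeq2, with 1 higher and 1 lower at an unadjusted p below 0.05.

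Among 5 genes of inhibitor of apoptosis proteins, which block caspases or their activation, only Birc2 was called. It rose from 23.9 ± 3.28 to 37.9 ± 2.04 CPM (log2 fold change 0.67, SE 0.15, edgeR adjusted p = 0.00499). Xiap stood at 112 ± 20.6 and 117 ± 4.20 CPM and Birc3 at 13.1 ± 1.70 and 16.0 ± 5.09 CPM, and neither was called. The death receptor arm, which reaches the BCL2 family through BID, had 4 of 10 tested genes higher and 0 lower. DESeq2 called 5 higher and 0 lower, and 6 were higher and 0 lower at an unadjusted p below 0.05. In edgeR, 13.3% of all genes tested were called higher and 13% lower. The receptor genes Fas and Tnfrsf1a rose, Fas from 16.1 ± 2.11 to 36.1 ± 4.48 CPM (edgeR adjusted p = 0.000142) and Tnfrsf1a from 40.6 ± 2.31 to 101 ± 16.6 CPM (edgeR adjusted p = 2.93e-05). Tnfrsf1b rose from 16.0 ± 4.94 to 35.4 ± 1.30 CPM, and Ripk3, which passed the low count filter only with its LPS samples, was the other gene called. Casp8, the protease that cleaves BID, stood at 37.1 ± 2.62 and 35.9 ± 6.40 CPM, and its inhibitor Cflar at 67.5 ± 8.87 and 68.7 ± 6.37 CPM. Neither was called. The adaptor genes Fadd (log2 fold change 0.60, edgeR adjusted p = 0.0584) and Ripk1 (0.63, edgeR adjusted p = 0.0558) were not called either, and the receptor gene Tnfrsf10b was too low to test.

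The list of p53 and its targets, which is a usual route to Bbc3, Pmaip1 and Bax, had 5 of 13 tested genes higher and 2 lower. Over all genes tested, the shares were 13.3% higher and 13% lower. Cdkn1a, the cell cycle inhibitor, stood at 6.08, 8.51, 5.49 and 20.0 CPM in control replicates 1 to 4 and at 123, 134 and 129 CPM in LPS replicates 1 to 3. Control replicate 4 was the highest control and was far below the LPS samples. The log2 fold change of Cdkn1a was 3.67 (SE 0.36, edgeR adjusted p = 9.63e-06), and it was 4.26 without control replicate 4. Ei24 (log2 fold change 0.77) and Aen (0.91) also rose, and the remaining called genes were Ccng1 and Zmat3, higher, and Mdm4 and Perp, lower. Trp53 itself stood at 15.3 ± 2.51 and 14.8 ± 3.07 CPM, and Mdm2, the gene for its ubiquitin ligase and a p53 target, at 25.7 ± 2.46 and 31.4 ± 3.18 CPM, and neither was called. Among the family members and these targets, Pmaip1, Bax and Cdkn1a were higher, while Bbc3 and Mdm2, which are also known p53 targets, were not called. The part of p53 in these changes was not tested.

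Of 12 genes of transcription factors and related regulators with known links to BH3-only genes, 4 were higher and 0 lower. The 0 was also 0 at an unadjusted p below 0.05 and 0 with DESeq2. The edgeR shares over all genes tested were 13.3% higher and 13% lower. Stat3, which is known to drive Bcl2l1 and Mcl1, rose from 52.7 ± 12.7 to 166 ± 11.7 CPM (log2 fold change 1.66, edgeR adjusted p = 2.98e-05). Ddit3, which encodes CHOP, rose from 7.47 ± 3.16 to 31.7 ± 4.51 CPM (log2 fold change 2.09, edgeR adjusted p = 9.08e-05). Foxo1, a known activator of Bcl2l11 and Bbc3, rose from 22.2 ± 6.06 to 44.1 ± 4.43 CPM (log2 fold change 0.99, edgeR adjusted p = 0.00286), and Hif1a was the other gene called. Of 5 tested genes of the ubiquitin control of MCL1, Fbxo4 was called higher, with a log2 fold change of 0.77 and an adjusted p of 0.0195. The call of Fbxo4 was lost in 4 of 15 alternatives: without LPS replicate 2 (0.0885), without LPS replicate 3 (0.0609), with these summed (0.0661) and with total counts (0.0615), and its adjusted p ran from 0.00276 to 0.0885. Of 12 genes of kinases, phosphatases and binding partners of BAD and BIM, 2 were higher and 2 lower, close to the 13.3% and 13% of all genes tested. Dynll2, which encodes a dynein light chain that binds BMF, fell from 133 ± 33.1 to 70.9 ± 7.33 CPM (edgeR adjusted p = 0.00414), and Dynll1, whose product binds BIM, was higher. Ppp3ca, for the catalytic subunit of calcineurin, which dephosphorylates BAD, fell from 54.6 ± 8.91 to 34.8 ± 1.59 CPM (edgeR adjusted p = 0.00809). Pim1, for a kinase that phosphorylates BAD, rose from 14.3 ± 2.83 to 23.2 ± 3.18 CPM (edgeR adjusted p = 0.0146). Without LPS replicate 3 neither was called (adjusted p = 0.0501 for Ppp3ca and 0.0856 for Pim1), Pim1 was also not called with the replicate number as a block (0.0555), and over 15 alternatives the adjusted p ran from 0.00195 to 0.0501 for Ppp3ca and from 0.00238 to 0.0856 for Pim1.

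Exons of 5 members overlap those of another gene in the reference annotation. The libraries kept strand, but the strand setting used in counting was not given in the sources used here. Bak1 overlaps Ggnbp1 on the opposite strand, and Ggnbp1 fell from 4.14 ± 0.818 to 0.967 ± 0.240 CPM, opposite to Bak1. Bad overlaps Gpr137 on the opposite strand, which stood at 12.3 ± 3.37 and 11.4 ± 1.91 CPM and was not called. Bid overlaps Bcl2l13 on the opposite strand, which stood at 21.8 ± 5.66 and 20.1 ± 2.08 CPM and was not called. The partners of Bax (Gm45808) and Bcl2 (D630008O14Rik) were too low to test, with 0 counts of D630008O14Rik in all 7 samples. Whether reads were shared within these pairs was not tested.

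Promoter sequence was compared across members because 5 of them rose together. RefSeq promoters (GRCm38.p6) were found for 9 of the 10 members, with 15 start sites in all, and the 250 bases before each start were searched on both strands for 8 motifs chosen after the expression results were known. The motifs were GTAAACA (FOXO), CACGTG (E-box), TTCNNNGAA (STAT sites), a p53 site pair, an NF-kappa B site, TGACGTCA (CRE), CCAAT, and an interferon response element. Among all 32851 promoters, these were present in 3.17%, 6.02%, 7.02%, 0.49%, 0.14%, 1.55%, 33.8% and 2.98%, in the same order. FOXO letters were in 1 window of Bcl2l11 and 1 of Bbc3, the E-box in 1 window of Bax and 1 of Bbc3, and CCAAT in windows of Bcl2l11, Bbc3 and Bad. The other 5 motifs had no match in the 15 windows, which says only that these letters were not there. No motif was found in more than 1 of the members that rose, and Pmaip1 was not searched. Shown here are the FOXO matches, because Foxo1 rose while Bcl2l11 and Bbc3 were not called, and the Bax match, because Bax rose, with the motif in capitals. The Bcl2l11 window lies on chr2:128125788-128126037 (plus strand), the Bbc3 window on chr7:16310011-16310260 (plus strand) and the Bax window on chr7:45466899-45467148 (minus strand), and no annotated exon overlaps them. The Bbc3 window lies downstream of another start site of Bbc3. The motif starts 227, 167 and 9 bases before the start site. A match is a description of the sequence and not evidence of binding.
Bcl2l11: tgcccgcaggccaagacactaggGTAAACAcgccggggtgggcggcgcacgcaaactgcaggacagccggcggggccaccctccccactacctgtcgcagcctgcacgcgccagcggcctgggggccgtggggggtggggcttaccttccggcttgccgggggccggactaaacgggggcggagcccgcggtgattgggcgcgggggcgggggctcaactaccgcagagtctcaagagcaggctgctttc
Bbc3: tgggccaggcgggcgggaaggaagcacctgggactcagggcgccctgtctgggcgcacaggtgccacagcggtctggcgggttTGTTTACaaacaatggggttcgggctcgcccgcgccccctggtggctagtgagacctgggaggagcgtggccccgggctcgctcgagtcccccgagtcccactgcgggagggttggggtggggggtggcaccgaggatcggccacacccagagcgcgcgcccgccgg
Bax: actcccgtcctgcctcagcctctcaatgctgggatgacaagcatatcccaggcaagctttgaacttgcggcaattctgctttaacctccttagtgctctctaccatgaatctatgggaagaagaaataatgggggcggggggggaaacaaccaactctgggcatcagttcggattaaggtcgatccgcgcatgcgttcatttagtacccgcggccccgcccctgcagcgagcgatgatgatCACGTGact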

How the data were processed

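The authors deposited a table of raw counts per gene for 7 liver samples. The submitters' processing notes name cutadapt 1.9.1, HISAT2 2.2.1, HTSeq 0.6.1, DESeq2 1.34.0 and the GRCm39 build. The annotation release, strand setting and treatment of multiply mapped reads were not given in the sources used here. From the deposited counts, all 56691 genes were filtered with filterByExpr, scaled with TMM and tested with edgeR 4.0.16 (quasi-likelihood, group only, Benjamini-Hochberg over 13683 genes) in R 4.3.3, and the procedure was tested on simulated data. Alternatives were DESeq2 1.42.0, other scalings and filters, a replicate block, and leaving out each sample. Exon lengths, and which genes overlap, came from GENCODE M21 (GRCm38), matched by gene ID. Ratios were described without a test. Members and gene lists were chosen with earlier results of these data known. The text names all members, called or undetected relatives, the 3 smallest adjusted p-values of each other list, a set of apoptosis genes in every case, and the defining and most abundant markers, apart from a few left out of the text. Promoter motifs, overlapping genes, the Bcl2a1 sum and other list members were added after the data were seen.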

Additional observations from a re-analysis of the deposited data

Results flagged for a closer look

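Values of 38 genes and 9 ratios in the 4 control samples were examined for a sample far from the other 3, and 3 of these 47 were found. Groups of 3 were not examined. By chance about 1 in 20 such groups would show one, and the control samples are shared by all of them. Bak1 stood at 7.56 CPM in control replicate 2, against 5.85 to 6.08 CPM in the other controls, and this value was still below the lowest LPS sample. Cflar, the inhibitor of caspase-8, stood at 54.3 CPM in control replicate 2, against 70.0 to 73.1 CPM in the others. Aen, a p53 target that encodes a nuclease, stood at 5.58 CPM in control replicate 1, against 7.94 to 8.24 CPM in the others.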

How the results depend on the processing

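Across 16 alternatives, the count of members called higher was 5 with DESeq2, RLE factors, no filter, mitochondrial genes left out and the replicate block. It was 3 with total counts, 4 with LPS replicates 2 and 3 summed, 4 with at least 10 counts required in every sample, where Pmaip1 was not tested, and 1 with a log2 fold change above 1 required as well. Leaving out 1 sample gave 3 to 5 higher members, with 3 without LPS replicate 2 or 3, and 0 to 0 lower members; the count of lower members was 0 in every alternative. Over all genes, leaving out 1 sample gave 1290 to 1906 higher and 1146 to 1868 lower genes, with 1146 and 1159 lower without LPS replicates 2 and 3. The fold rule left 1068 higher and 1000 lower genes by construction, and total counts gave 1350 and 2057. Fewer samples enter the fits that leave one out, and the cause of the other differences was not tested.

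The replicate numbers gave no clear pairing of the samples. Deviations from the group means correlated at 0.18, -0.06 and 0.07 for numbers 1, 2 and 3, and at -0.14 to 0.10 for samples of different number. So few correlations cannot exclude a pairing. With the replicate block on 6 samples, 1658 genes were higher and 1594 lower, against 1572 and 1581 without it on the same samples, and Bcl2l11 had a log2 fold change of 0.27.

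Of the genes not called in any alternative, 8 changed sign around 0, and the cause was not tested. Bcl2l11 was at 0.00087 with DESeq2, 0.0040 without a filter and 0.0358 with LPS replicates 2 and 3 summed. Without control replicates 2 and 4 and LPS replicate 3 it was at 0.0392, 0.199 and 0.0789, and its range on leaving out 1 sample was -0.236 to 0.199. With total counts Cycs was at -0.0451, Xiap at -0.0529 and Cflar at -0.0829. Leaving out 1 sample put Casp8 at up to 0.0939, Casp9 at -0.284 to 0.0244, Xiap at -0.0579 to 0.167, Birc3 at -0.0034 to 0.441 and Trp53 at -0.224 to 0.0706, with 0.0399 and 0.0068 between. Cflar ran from -0.0793 to 0.0952 in this way, with -0.0370 between. Summing LPS replicates 2 and 3 put Trp53 at 0.0400.

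Leaving out 1 sample moved the log2 difference of each ratio as follows. Bax to Bcl2 ran from 0.18 to 0.73, Bax to Mcl1 from 0.51 to 0.85, Bak1 to Mcl1 from 0.51 to 0.71, and effectors to survival members from 0.39 to 0.67. Bax to Bcl2l1 ran from -0.15 to 0.27 and Bcl2l11 to Mcl1 from -0.31 to 0.19, so both changed sign. Bbc3 to Mcl1 ran from -0.83 to -0.34, Bcl2l11 to Bcl2l1 from -0.90 to -0.43, and BH3-only to survival members from 0.12 to 0.27. With CPM of the total count, the log2 ratio of mean Bad levels was 0.65 in place of 0.77, and those of the other 9 members moved by less than the control spread. At this depth Bcl2 and the Bcl2a1 copies rest on few reads, which limits what can be seen of them.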
